A study of Mus musculus with 23 samples.

Results

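This is the expression of 9 transcription factor genes that direct macrophage lineage and microglial state across the 4 groups of the study: Spi1, Irf8, Mef2a, Mef2c, Maf, Runx1, Bhlhe40, Bhlhe41 and Mitf. They were selected by gene symbol, and all 9 were found among the 18876 genes of the count table and passed the filter on low counts, which left 18759 genes for testing. CD11b+ cells were isolated with magnetic beads from the hippocampus of female mice and their RNA was sequenced in bulk, 1 library per mouse sample. All mice were Slc11a2 fl/fl and carried 1 copy of Cx3cr1 Cre-ERT2 on a mixed 129S;C57BL/6J background, so the floxed alleles and the Cre were also present in the controls. Control mice received corn oil, while knockdown (KD) mice were given tamoxifen orally at 5 to 6 months, 4 mg daily for 5 days, and cells were collected at 15 to 18 months. Within each treatment, mice were either WT or hemizygous for APP/PS1, a transgene pair that produces amyloid plaques in the brain. This gave 6 Control WT, 7 Control APP/PS1, 5 KD WT and 5 KD APP/PS1 libraries. Library 10 of Control APP/PS1 was left out, so 6 libraries of that group and 22 libraries in all were compared. Tamoxifen and knockdown went together in every mouse and cannot be told apart. The Cre is driven by Cx3cr1, which is active in microglia and in other brain macrophages.

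Microglia descend from yolk sac macrophages, and a small set of transcription factors sets up and then holds their identity. PU.1, the ETS factor encoded by Spi1, opens most macrophage enhancers, and IRF8, the MEF2 factors, MAF and RUNX1 bind beside it to select the microglial set. BHLHE40 and BHLHE41 are basic helix-loop-helix repressors that bind E-boxes and act in macrophage state and in the circadian clock, while MITF is a basic helix-loop-helix zipper factor that activates lysosomal and osteoclast genes. In amyloid models, microglia around plaques take on a lipid-handling, phagocytic state, and these factors are among its candidate regulators.

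The depth was between 31128643 and 54872491 counts per library, with a median of 41460280. Expression is given as CPM, the counts relative to library size after TMM scaling, which multiplies each library size by a factor. It does not correct for a different mix of cell types between libraries. Microglial markers were high in every group: the summed level of the 10 listed markers measured, among them P2ry12 and Tmem119, was between 32728 and 49030 CPM, and none was at 0. Markers of border-associated macrophages, the macrophages of brain surfaces and vessels, summed to between 91.8 and 511 CPM. Sums of other listed markers differed with APP/PS1. Between Control WT and Control APP/PS1 the microglial sum was 41344 to 48102 against 32728 to 37751 CPM (4 of 10 markers lower), that of monocytes, neutrophils and dendritic cells 109.6 to 314 against 31.6 to 85.6 CPM (4 of 7 lower), and that of endothelial cells 179 to 377 against 117 to 153 CPM (4 of 6 lower and 1 higher). The astrocyte sum was higher instead, 6.74 to 13.7 against 35.3 to 98.1 CPM. Of its 5 markers 1 passed the threshold, Gfap, with group means of 3.68 and 55.1 CPM. Gja1 differed the other way without passing (1.08 and 0.387 CPM). Oligodendrocyte sums overlapped, 735 to 2801 against 364 to 973 CPM, with 4 of 6 markers lower. Between KD WT and KD APP/PS1 the microglial sum was 42478 to 49030 against 35396 to 40174 CPM (5 of 10 markers lower). The astrocyte sum was 5.60 to 16.5 against 37.7 to 124 CPM, again with only Gfap past the threshold. Sums overlapped for oligodendrocytes, 1007 to 3627 against 554 to 1269 CPM (2 of 6 lower), and endothelial cells, 153 to 332 against 98.1 to 185 CPM (1 of 6 lower). Those of monocytes, neutrophils and dendritic cells overlapped too, 105 to 424 against 71.8 to 193 CPM (1 of 7 lower). Their part in the results below was not tested. Slc11a2 did not pass the threshold between KD and Control: it was 34.2 ± 4.75 CPM (SD, n = 5) in KD WT against 35.1 ± 5.13 (n = 6) in Control WT (log2 fold change -0.04, SE 0.14, adjusted p = 1), and 56.5 ± 13.5 (n = 5) in KD APP/PS1 against 43.2 ± 3.93 (n = 6) in Control APP/PS1 (0.39, SE 0.14, adjusted p = 0.205). These are totals of the whole gene, which do not separate the floxed exons, and every direction for knockdown below follows the labels. Library numbers ran from 5 to 17 in the Control groups, and from 1 to 4 and from 18 to 23 in the KD groups. The labels name no batch.

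Levels can be compared between genes only per length, so CPM was divided by the length of each gene's exons in kb. In Control WT, Spi1 stood highest at 97.1 ± 4.83 CPM per kb (SD, n = 6), above Irf8 at 56.7 ± 4.56 and Maf at 44.4 ± 6.94. Spi1 did not overlap with Irf8 over the 6 libraries, while Irf8 and Maf overlapped. Mef2a at 18.5 ± 2.38, Mef2c at 14.1 ± 2.38 and Bhlhe41 at 13.7 ± 1.81 CPM per kb formed a middle tier in which neighbours overlapped. Runx1 followed at 4.42 ± 0.545, apart from both its neighbours. Mitf at 1.52 ± 0.135 and Bhlhe40 at 1.21 ± 0.844 CPM per kb were lowest and overlapped with each other. The order in KD WT was the same but for Bhlhe41 and Mef2c, which overlapped and changed places.

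In Control APP/PS1 the order per length was different in the middle and at the bottom. Spi1 at 87.4 ± 7.54 and Irf8 at 72.8 ± 7.19 CPM per kb (SD, n = 6) now overlapped. Maf at 21.6 ± 1.94 fell into the middle tier beside Bhlhe41 at 22.3 ± 4.68, and Bhlhe40 at 6.20 ± 2.05 reached the level of Runx1 at 4.77 ± 0.764 CPM per kb. Mitf at 1.98 ± 0.307 CPM per kb was then lowest on its own. In KD APP/PS1 the top place was again Spi1 at 90.5 ± 3.09 CPM per kb, clear of Irf8 at 67.9 ± 3.81 (n = 5), and Mitf at 1.33 ± 0.472 was again lowest. Exon lengths were those of all annotated exons together, so a gene read mainly from a short isoform is placed too low.

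**Figure D1:**
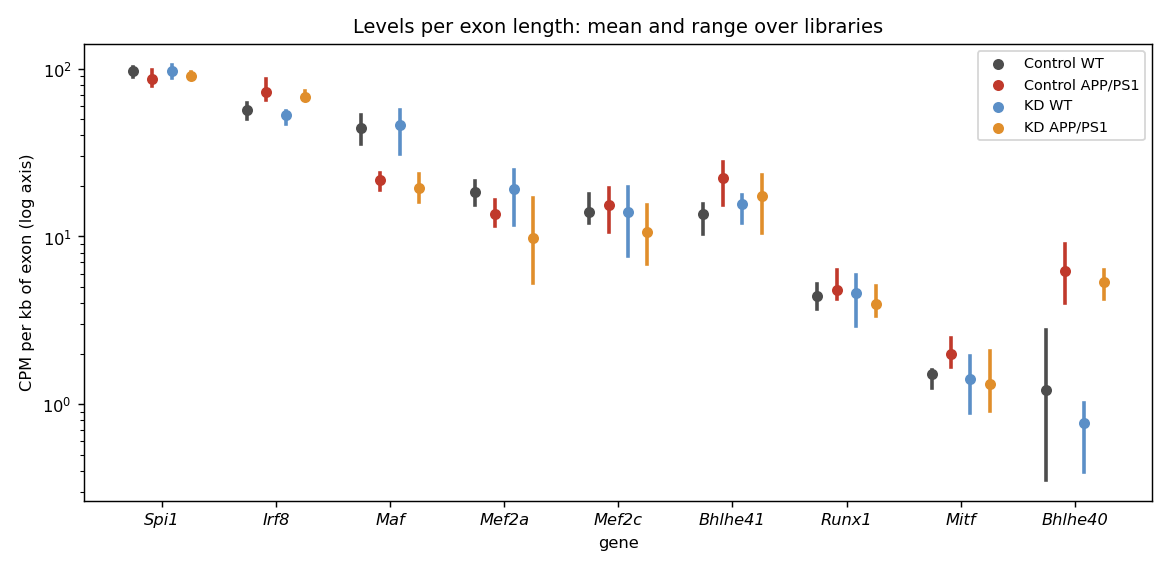
Level per exon length of each gene (CPM per kb of exon, log axis), with the mean as a point and the lowest to highest library as a bar for each of the 4 groups (n = 6, 6, 5 and 5). Spi1 is highest in each group, Maf is lower in both APP/PS1 groups, and Bhlhe40 rises from the bottom in WT to the level of Runx1 in APP/PS1.

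The question of the first comparison was how these factors differ between APP/PS1 and WT in mice without knockdown. Bhlhe40, Bhlhe41 and Irf8 were higher and Maf was lower in Control APP/PS1, so 4 of the 9 genes passed the threshold of an adjusted p of 0.05 (edgeR quasi-likelihood test with Benjamini-Hochberg adjustment over 18759 genes). Of all genes tested, 10.5% passed, 5.99% higher and 4.48% lower. Groups did not overlap for 4 of the 9 genes, against 8.36% of all genes. In bulk RNA, a change in the number of cells of a type and a change of RNA per cell cannot be told apart.

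For these 4 genes the 250 bases before the start of the canonical transcript (GENCODE M39, GRCm39) are shown to give the sequence around the start of transcription of the genes that differed, 5′ to 3′ on the strand of the gene. The motifs searched, 4 in number and on both strands, were the E-box CACGTG bound by BHLHE40, BHLHE41 and MITF, the PU.1 motif GAGGAAGT, the RUNX motif TGTGGT and the MAF site TGCTGAC. Capitals mark a match.
Bhlhe40 promoter, chr6:108636376-108636625, plus strand: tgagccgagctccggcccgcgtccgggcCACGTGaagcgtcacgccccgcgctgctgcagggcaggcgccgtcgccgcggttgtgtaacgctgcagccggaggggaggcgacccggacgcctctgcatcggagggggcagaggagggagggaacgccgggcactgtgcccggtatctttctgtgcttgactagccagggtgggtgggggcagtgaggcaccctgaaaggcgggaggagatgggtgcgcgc
Bhlhe41 promoter, chr6:145811299-145811548, minus strand: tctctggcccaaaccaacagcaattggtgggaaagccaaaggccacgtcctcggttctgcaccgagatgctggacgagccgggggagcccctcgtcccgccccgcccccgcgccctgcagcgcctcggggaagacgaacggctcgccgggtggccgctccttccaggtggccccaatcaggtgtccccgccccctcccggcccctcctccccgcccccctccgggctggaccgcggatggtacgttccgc
Irf8 promoter, chr8:121462847-121463096, plus strand: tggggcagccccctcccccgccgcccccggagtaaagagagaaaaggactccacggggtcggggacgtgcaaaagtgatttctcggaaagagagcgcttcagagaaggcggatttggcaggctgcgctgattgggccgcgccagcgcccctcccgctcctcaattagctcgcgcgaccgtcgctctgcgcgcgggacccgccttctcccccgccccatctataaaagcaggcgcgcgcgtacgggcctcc
Maf promoter, chr8:116434580-116434829, minus strand: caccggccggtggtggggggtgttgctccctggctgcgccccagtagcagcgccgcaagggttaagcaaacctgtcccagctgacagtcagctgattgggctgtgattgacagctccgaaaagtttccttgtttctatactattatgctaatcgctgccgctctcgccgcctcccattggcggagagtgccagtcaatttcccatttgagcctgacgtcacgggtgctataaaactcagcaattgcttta
The promoter of Bhlhe40 held the E-box from 222 to 217 bases before the start, as 1363 of 21770 promoters of protein-coding genes did (6.26%). The other 3 held none of the 4 motifs. Of the remaining members, Runx1 and Mitf held TGTGGT (13.02% of all promoters) and Mitf also held TGCTGAC (3.24%), while GAGGAAGT (2.08%) was in none of the 9. A match of letters shows no binding, and its absence says nothing of sites elsewhere. GC content was 71.6% for Bhlhe40, 72.4% for Bhlhe41, 67.2% for Irf8 and 55.2% for Maf, against a median of 53.2% over all promoters.

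Bhlhe40 (ENSMUSG00000030103; chr6:108636626-108644502, plus strand) showed the largest difference of the 9. Its level in Control WT ran from 2.24 to 17.6 CPM with a median of 6.58, and in Control APP/PS1 from 25.4 to 57.6 CPM with a median of 37.0. All 6 APP/PS1 libraries lay above all 6 WT libraries, of which library 15 was highest. The log2 fold change was 2.36 (SE 0.34, 95% interval 1.66 to 3.06, adjusted p = 3.40e-05), a 5.12-fold higher level. It rested on as few as 73 counts in a WT library and on 1048 or more in each APP/PS1 library.

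Bhlhe41 (ENSMUSG00000030256; chr6:145803969-145811430, minus strand), the close relative of Bhlhe40 with the same E-box binding domain, rose less. Control WT libraries held 73.9 to 112 CPM (median 99.4) and Control APP/PS1 libraries 110.0 to 199.9 (median 161). In APP/PS1, 5 of the 6 libraries were above the highest WT library, and library 17 was within the WT range. The log2 fold change was 0.71 (SE 0.17, adjusted p = 0.00696). Per length, Bhlhe41 was well above Bhlhe40 in WT and still above it in APP/PS1, 22.3 against 6.20 CPM per kb.

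Irf8 (ENSMUSG00000041515; chr8:121463096-121485659, plus strand) encodes the interferon regulatory factor that pairs with PU.1 and that microglia need to develop. It ran from 488 to 606 CPM (median 565) in Control WT and from 636 to 841 CPM (median 689) in Control APP/PS1. Groups did not overlap, and the difference was small beside that of Bhlhe40, with a log2 fold change of 0.36 (SE 0.085, adjusted p = 0.0065), or 1.28-fold. Spi1 (ENSMUSG00000002111; chr2:90912562-90946101, plus strand), its partner, ran from 269 to 311 CPM (median 296) in Control WT and from 237 to 297 CPM (median 264) in Control APP/PS1. These ranges overlapped, and the difference did not pass the threshold (log2 fold change -0.15, 95% interval -0.31 to 0.01, adjusted p = 0.24).

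Maf (ENSMUSG00000055435; chr8:116409632-116434579, minus strand), a large MAF factor of macrophages, was the 1 member called lower in the fit of all groups. Its level was 332 to 491 CPM (median 388) in Control WT and 176 to 221 CPM (median 200.0) in Control APP/PS1. Every APP/PS1 library lay below every WT library. The log2 fold change of Maf was -1.04 (SE 0.14, 95% interval -1.34 to -0.74, adjusted p = 1.96e-05), so the level in APP/PS1 was 0.486 of that in WT. Border-associated macrophages also express Maf, and their 7 listed markers moved the same way: their summed level was 221 to 428 CPM in Control WT and 91.8 to 197 CPM in Control APP/PS1, 5 of 7 were lower past the threshold, among them Mrc1 and Cd163, and none was at 0. Their part in the difference of Maf was not tested.

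The MEF2 factors bind A/T-rich sites and hold the adult microglial program. Mef2a (ENSMUSG00000030557; chr7:66880911-67022606, minus strand) ran from 238 to 334 CPM (median 284) in Control WT and from 179 to 254 CPM (median 209.6) in Control APP/PS1, with 5 of 6 APP/PS1 libraries below every WT library. It did not pass the threshold in the fit of all groups (log2 fold change -0.44, SE 0.21, adjusted p = 0.201). With only both Control groups in the fit it did (-0.43, adjusted p = 0.00863), as with libraries 18 to 23 as a covariate (-0.44, adjusted p = 0.0324). Mef2c (ENSMUSG00000005583; chr13:83652064-83815555, plus strand) overlapped broadly, at 205 to 305 CPM in Control WT and 182 to 335 CPM in Control APP/PS1 (log2 fold change 0.13, 95% interval -0.30 to 0.57, adjusted p = 0.785).

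Runx1 (ENSMUSG00000022952; chr16:92398354-92623037, minus strand), the factor of blood cell emergence, ran from 46.9 to 65.9 CPM in Control WT and from 53.4 to 79.7 CPM in Control APP/PS1 (log2 fold change 0.11, 95% interval -0.22 to 0.43, adjusted p = 0.765). Mitf (ENSMUSG00000035158; chr6:97783950-97998323, plus strand) ran from 12.7 to 16.2 CPM (median 16.1) in Control WT and from 16.8 to 25.2 CPM (median 19.9) in Control APP/PS1. Its groups did not overlap, yet the difference did not pass the threshold in the fit of all groups (log2 fold change 0.38, SE 0.19, adjusted p = 0.227). In the fit of both Control groups alone the log2 fold change was 0.40 with an adjusted p of 0.026. In libraries 5 to 17 the spread of Mitf was narrower than in the KD groups, with a coefficient of variation of 8.89% in Control WT and 15.5% in Control APP/PS1 against 28.8% in KD WT and 35.6% in KD APP/PS1.

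Libraries 12 and 15 of Control WT held choroid plexus transcripts, with a marker sum of 1936 and 1005 CPM against 1.62 to 5.68 CPM in the other 4. Without them, Bhlhe40 (log2 fold change 2.74) and Maf (-1.13) still passed the threshold, while Irf8 (0.29, adjusted p = 0.07) and Bhlhe41 (0.63, adjusted p = 0.0506) did not. DESeq2 called the same 4 members as edgeR, and of all 18759 genes it called 1238 higher and 1306 lower. Counting did not state a strand setting, and on the opposite strand Bhlhe41 shares 1583 exon bases with Gm43909, Mef2a 1081 with Lysmd4, Bhlhe40 442 with 0610040F04Rik and Maf 440 with Gm15655, and whether their reads were separated is not known.

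**Figure D2:**
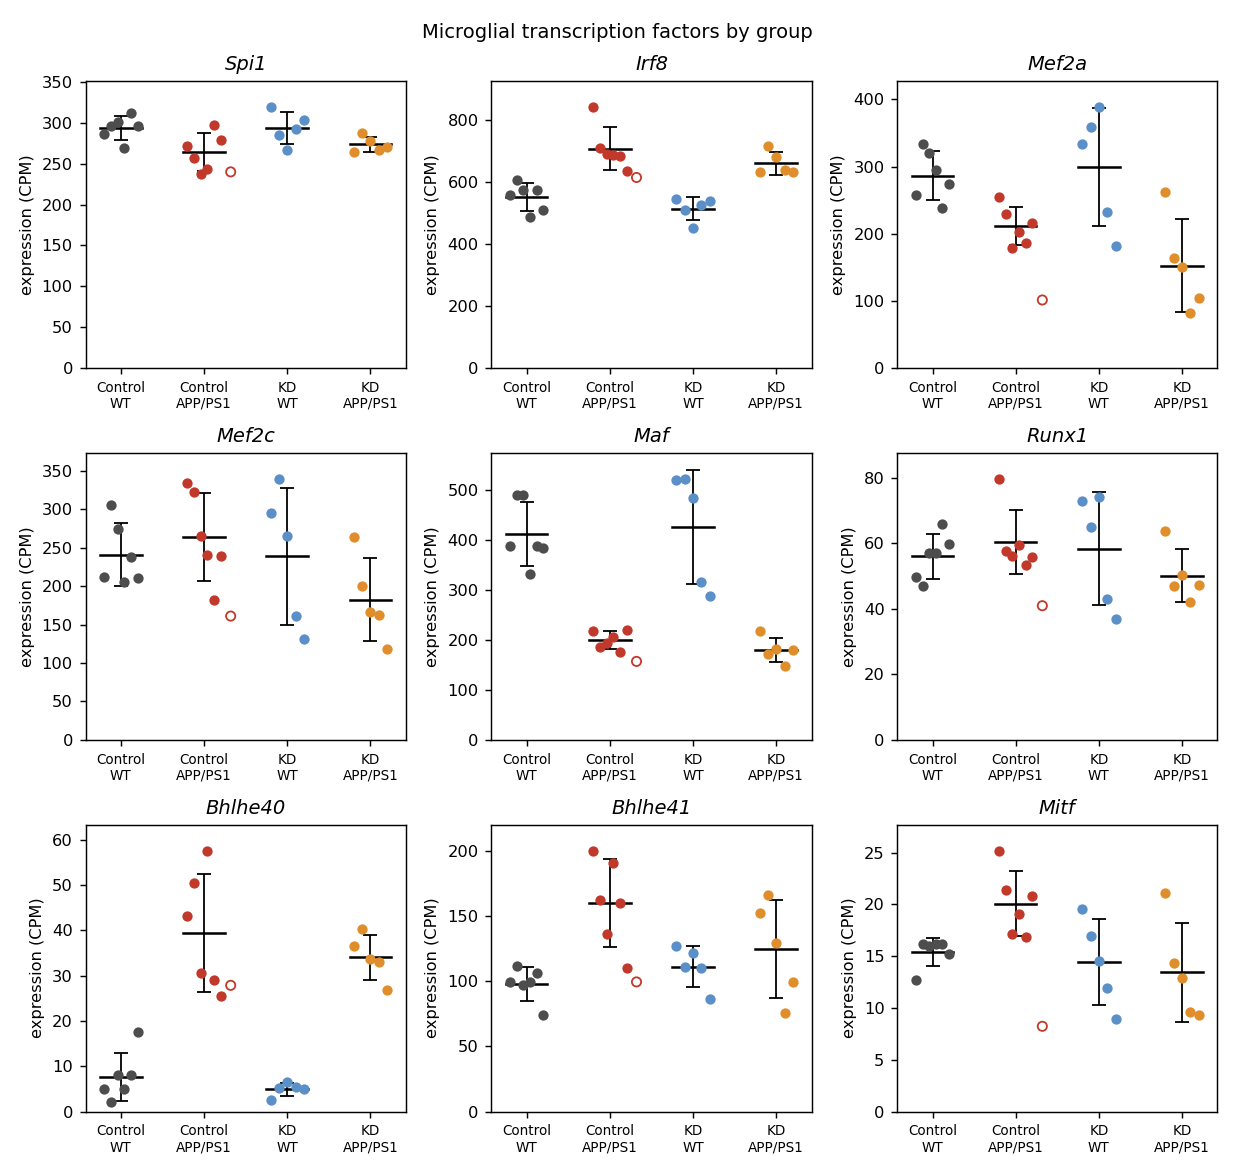
Expression in CPM of each of the 9 genes in each library (points), with mean and SD (bars) by group; the open circle is library 10, which was left out of the mean, SD and tests. Bhlhe40 is between 2.24 and 17.6 CPM in all WT libraries and above 25 CPM in all APP/PS1 libraries, and Maf is lower in every APP/PS1 library than in every WT library.

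The second comparison asked the same of the knockdown mice and shares no library with the first. Bhlhe40 and Irf8 were again higher and Maf again lower in KD APP/PS1 than in KD WT, and Mef2a was lower. Of the 9 genes, 4 passed the threshold, 2 in each direction, where 16.2% of all genes passed, 9.77% higher and 6.41% lower. Groups did not overlap for 3 of the 9, against 7.06% of all genes.

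Bhlhe40 was at 2.50, 5.19, 6.45, 5.46 and 4.99 CPM in KD WT libraries 1, 2, 3, 19 and 22. It was at 36.5, 40.3, 33.8, 33.0 and 26.9 CPM in KD APP/PS1 libraries 4, 18, 20, 21 and 23. The groups did not overlap, and library 4 lay within the range of libraries 18 to 23. The log2 fold change was 2.79 (SE 0.38, adjusted p = 2.06e-05), or 6.93-fold. Irf8 was at 545, 510.2, 452, 526 and 539 CPM in KD WT and at 633, 716, 680, 638 and 632 CPM in KD APP/PS1. All 5 APP/PS1 libraries were above all 5 WT libraries, and the log2 fold change of 0.36 (SE 0.093, adjusted p = 0.0101) was the same as in the Control groups to 2 decimals. The call was lost with only the KD groups in the fit (0.38, adjusted p = 0.0785) and in libraries 18 to 23 alone (0.32, adjusted p = 0.427).

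Maf was at 520.5, 523, 485, 317 and 288 CPM in KD WT libraries 1, 2, 3, 19 and 22, which split into a higher set of 3 and a lower set of 2. It was at 217, 173, 182, 149 and 180.2 CPM in KD APP/PS1, with library 4 highest. Even the lower KD WT libraries were above every KD APP/PS1 library. The log2 fold change was -1.24 (SE 0.16, adjusted p = 8.93e-06), and within libraries 18 to 23 alone it was -0.83 and still passed. The border-associated macrophage markers summed to 258 to 511 CPM in KD WT and 131 to 194 CPM in KD APP/PS1, with 3 of 7 lower past the threshold, and their part was not tested.

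Mef2a split in the same way. It was at 334, 358, 388, 232 and 182 CPM in KD WT and at 262, 164, 149.9, 82.2 and 105 CPM in KD APP/PS1, where library 4 lay within the WT range. The log2 fold change was -0.97 (SE 0.23, adjusted p = 0.00589). With libraries 18 to 23 as a covariate it was -0.63 and still passed, while within those libraries alone, 2 of KD WT and 4 of KD APP/PS1, it was -0.73 with an adjusted p of 0.249. The call was also lost with only the KD groups in the fit (-0.94, adjusted p = 0.0847).

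The other 5 members did not pass between the KD groups. Bhlhe41 was at 127, 111, 122, 110.1 and 86.0 CPM in KD WT and 153, 166, 129, 75.6 and 99.5 CPM in KD APP/PS1, with libraries on both sides of the WT range (log2 fold change 0.16, adjusted p = 0.598). Mef2c (-0.39, adjusted p = 0.258), Runx1 (-0.22, adjusted p = 0.42), Spi1 (-0.10, adjusted p = 0.455) and Mitf (-0.10, adjusted p = 0.812) had overlapping groups as well. The difference between both APP/PS1 comparisons was tested as the interaction of knockdown and APP/PS1. No member passed, as no gene did (0% of 18759), with 1 member and 1703 genes under an unadjusted p of 0.05 in edgeR. That member was Bhlhe41, with a log2 interaction of -0.54 (95% interval -1.06 to -0.03, adjusted p = 0.544, edgeR). DESeq2 called 18 genes higher and 7 lower in the interaction, and 0 members.

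The comparisons of KD with Control asked whether knockdown changed these factors within a genotype. In WT, 0 of 9 members and 0% of 18759 genes passed the threshold of edgeR, with 0 members and 1110 genes under an unadjusted p of 0.05, and DESeq2 called 6 genes higher and 4 lower and no member. Of the members, Spi1 and Irf8 had the narrowest intervals. Spi1 was at 319, 285, 267, 293 and 303 CPM in KD WT, a log2 fold change of 0.00 against Control WT with a 95% interval from -0.17 to 0.17. Irf8 differed by -0.10 (-0.28 to 0.08). The intervals were wider for Maf (-0.26 to 0.36), Mef2a (-0.39 to 0.52) and Mef2c (-0.47 to 0.44). Bhlhe40 had the largest difference, -0.64 (95% interval -1.36 to 0.07, adjusted p = 0.981), and its groups overlapped. It was -0.22 without library 15, the Control WT library with the highest level. Differences of the other members on the log2 scale were 0.18 for Bhlhe41, 0.06 for Runx1 and Mef2a, 0.05 for Maf, -0.01 for Mef2c and -0.10 for Mitf.

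In APP/PS1, 0 of 9 members and 0% of all genes passed in KD against Control. Differences were negative for 8 of 9 members, all but Spi1, where 49.0% of all genes were negative. With libraries 18 to 23 as a covariate, Mef2a (0.18), Mef2c (0.16), Maf (0.32) and Runx1 (0.27) were positive. In that fit Mitf was lower in libraries 18 to 23 than in libraries 1 to 4 of the KD groups (log2 difference -0.77, SE 0.16). Under an unadjusted p of 0.05 stood 3 members, Mitf (log2 fold change -0.58, SE 0.20, adjusted p = 0.205), Mef2c (-0.54, SE 0.22, adjusted p = 0.207) and Mef2a (-0.47, SE 0.22, adjusted p = 0.236), beside 20.6% of all genes. DESeq2 called 449 genes higher and 131 lower and no member, and gave no adjusted p for Bhlhe40 and Mitf. Library 4, the 1 KD APP/PS1 library outside the run 18 to 23, decided these calls. Without it, edgeR called 3069 of 18700 genes (16.4%). Mitf (-0.80, adjusted p = 0.0202), Mef2a (-0.75, adjusted p = 0.0211) and Mef2c (-0.71, adjusted p = 0.0361) were then lower. Every remaining KD APP/PS1 library was in the run 18 to 23, and no Control library was. Knockdown and run therefore cannot be told apart in that comparison. Within the KD groups, Mitf (-0.77), Mef2a (-0.91) and Mef2c (-0.90) were also lower in libraries 18 to 23 than in libraries 1 to 4. Bhlhe40 was at 26.9 to 40.3 CPM in KD APP/PS1 and 25.4 to 57.6 CPM in Control APP/PS1 (log2 fold change -0.21, 95% interval -0.91 to 0.49). Maf differed by -0.15 (95% interval -0.46 to 0.16) and Irf8 by -0.10 (-0.28 to 0.08). Bhlhe41 differed by -0.36 (adjusted p = 0.249), Runx1 by -0.27 (adjusted p = 0.361) and Spi1 by 0.05 (adjusted p = 0.791).

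**Figure D3:**
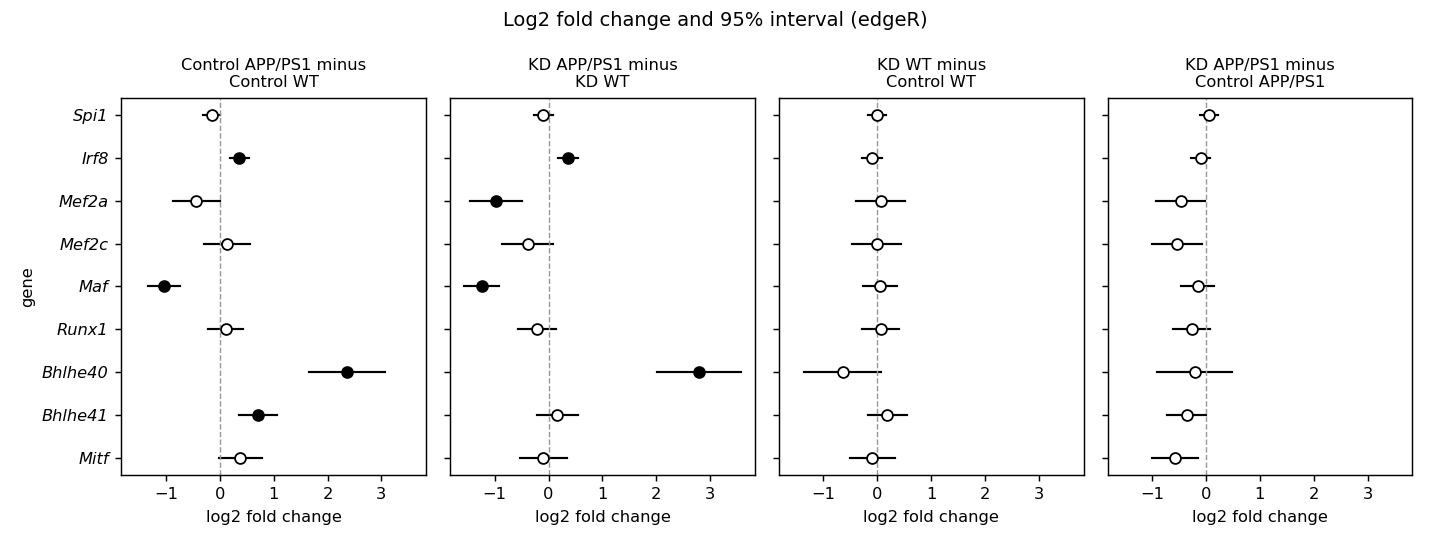
Log2 fold change (x axis) of each gene with its 95% interval in the 4 comparisons, edgeR; filled points passed an adjusted p of 0.05. Bhlhe40, Irf8 and Maf are filled in both APP/PS1 comparisons, Bhlhe41 in the Control groups and Mef2a in the KD groups, and no point is filled in either knockdown comparison.

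Since the KD libraries form 2 runs of numbers, 1 to 4 and 18 to 23, the runs were compared within the KD groups, as a term in the fit of all groups. In libraries 18 to 23, 5 members were lower, where 12.7% of all genes were lower. These were Mef2a (log2 difference -0.91, SE 0.16, adjusted p = 0.00058), Mef2c (-0.90, SE 0.18, adjusted p = 0.000948), Mitf (-0.77, SE 0.16, adjusted p = 0.00162), Runx1 (-0.68, SE 0.13, adjusted p = 0.000919) and Maf (-0.59, SE 0.12, adjusted p = 0.00144). Spi1 (0.05, SE 0.087), Irf8 (0.08, SE 0.095), Bhlhe40 (0.03, SE 0.39) and Bhlhe41 (-0.32, SE 0.19, adjusted p = 0.243) did not pass. What the runs stand for is not in the labels.

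The split was visible in single libraries of KD WT. Mef2c was at 295, 339.5 and 266 CPM in libraries 1, 2 and 3 and at 161 and 132 CPM in libraries 19 and 22. Runx1 was at 72.9, 65.1 and 74.2 CPM in the first 3 and at 43.0 and 36.9 CPM in the other 2. Both genes were thus lower in libraries 19 and 22 than in any Control WT library, while Spi1 and Irf8 in these 2 libraries lay within the Control WT range. In KD APP/PS1, Mitf was at 21.1 CPM in library 4 and at 14.3, 12.9, 9.62 and 9.29 CPM in libraries 18, 20, 21 and 23. Choroid plexus markers summed to 89.1 to 782 CPM in libraries 18 to 23 and to 2.30 to 51.8 CPM in libraries 1 to 4. Oligodendrocyte sums in KD WT were 2299 and 3627 CPM in libraries 19 and 22 against 1007 to 2119 CPM in libraries 1 to 3, and in KD APP/PS1 616 to 1269 CPM against 554 CPM in library 4. Microglial sums were 47193 and 49030 against 42478 to 46178 CPM in KD WT, and 37139 to 40174 against 35396 CPM in KD APP/PS1. TMM factors were 0.81 to 1.03 in libraries 18 to 23 and 1.02 to 1.14 in libraries 1 to 4. The part of these in the split was not tested. The 5 lower members have 9275 to 17132 bases of exon and the other 4 have 3021 to 9723.

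**Figure D4:**
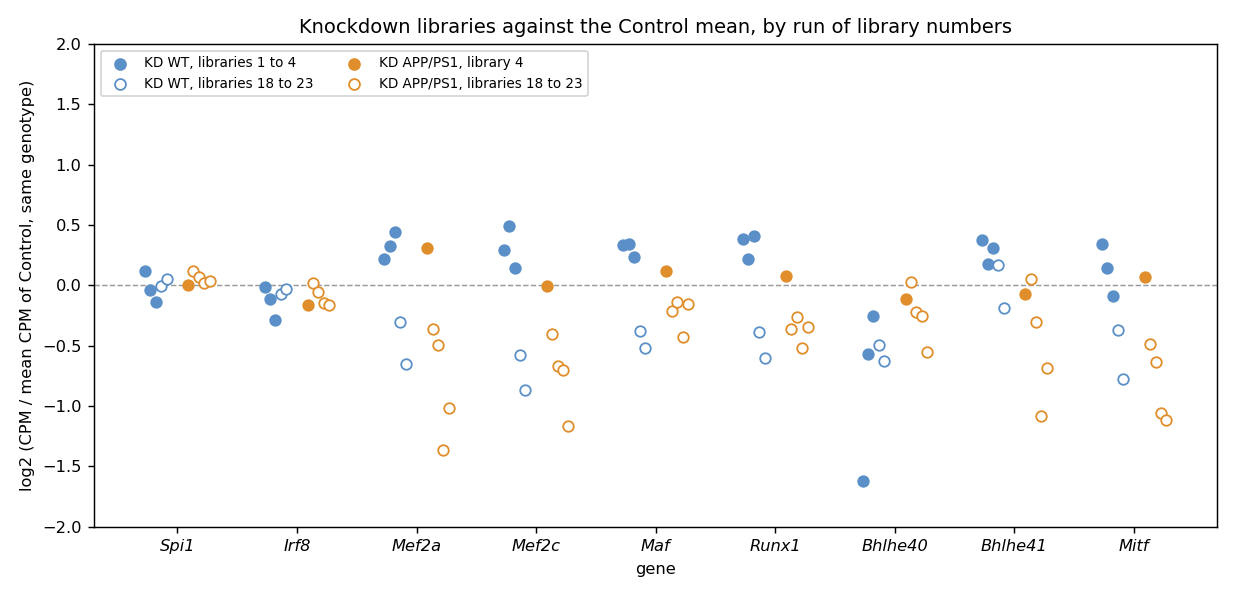
Each KD library as the log2 ratio of its CPM to the mean of the Control group of the same genotype, by gene; filled points are libraries 1 to 4 and open points libraries 18 to 23, blue for KD WT and orange for KD APP/PS1. For Mef2a, Mef2c, Maf, Runx1 and Mitf the open points lie below the filled points of the same colour, while for Spi1, Irf8 and Bhlhe40 the runs overlap in at least 1 genotype.

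After removal of the group means, Pearson's r of log2 CPM over 22 libraries was 0.70 to 0.90 for the 10 pairs of these 5 members, which were chosen by the same split of libraries. In the 12 Control libraries, outside the split, it was -0.01 (Maf with Runx1) to 0.74 (Mef2a with Mitf). Bhlhe41, not among the 5, had an r of 0.68 with Mef2a and 0.63 with Mitf over the 22 libraries. These r are descriptions, and the libraries share their runs and scaling. By the same measure among 9389 genes of at least 5 CPM, the gene most like Mef2a was Ikzf1 (r = 0.98), a zinc finger factor of lymphoid and myeloid cells, followed by Eif4g2 and Cyfip1 (both 0.97). Mef2c was most like Mycbp2, Rdx and Pbrm1 (all 0.95), and Mitf was most like Itpr2, Ddx6 (both 0.94) and Ppp4r3a (0.93). Maf was most like Camk2g, Prpf38b and Nkap (all 0.90), and Runx1 was most like Rnf168 (0.89), Strn3 and Ap4e1 (both 0.88).

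Among the remaining members, Bhlhe41 was most like Calu (r = 0.91), Itpkb and Zmiz2 (both 0.90). Spi1 was most like Gpr84 (0.82), a receptor for medium-chain fatty acids, followed by Ak1 (0.77) and Tbc1d23 (0.73). Bhlhe40 was most like Dubr (0.78) and Rfng (0.76), and Irf8 most like Arl10, Acad10 (both 0.67) and Mesd (0.65).

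Other regulators of the same families and of microglia were read for comparison, 39 of 41 listed genes being among those tested. In Control APP/PS1 against Control WT, 1 of the 39 was higher and 4 were lower (1 in 39 against 5.99% of all genes higher, 4 in 39 against 4.48% lower). Among 10 ETS factors, relatives of PU.1, Etv5 was lower (log2 fold change -0.53, adjusted p = 0.0494). Among 8 IRF factors, relatives of IRF8, Irf4 fell from 13.6 ± 5.18 CPM (SD, n = 6) to 5.20 ± 1.15 (n = 6; log2 fold change -1.39, adjusted p = 0.00133). Tfeb, 1 of 3 relatives of Mitf, was lower (-0.34, adjusted p = 0.0417). Of 9 other regulators, Cebpa, a factor of myeloid commitment, was higher (0.42, adjusted p = 0.00352) and Lyl1, a basic helix-loop-helix factor of blood progenitors, was lower (-0.70, adjusted p = 1.15e-05). The 5 large and small MAF factors measured, the MEF2 relative Mef2d and the 3 RUNX family members and partner held no gene past the threshold. Between the KD groups, 2 of the 39 were higher and 11 lower, where 9.77% of all genes were higher and 6.41% lower, with Irf4 (-1.31, adjusted p = 0.00432), Etv5 (-0.81, adjusted p = 0.00458), Cebpa (0.31, adjusted p = 0.0354) and Lyl1 (-0.52, adjusted p = 0.00123) past the threshold in the same direction as in the Control groups, and Tfeb not (-0.00, adjusted p = 0.999). In both knockdown comparisons 0 of the 39 passed with edgeR.

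Genes that these factors are known to act on were read as lists from textbook knowledge. Of 15 MITF and TFE targets measured, genes of lysosomes and osteoclasts, 8 were higher and 0 lower in Control APP/PS1 (all genes 5.99% and 4.48%), with a median log2 fold change of 0.36 against -0.02 over all genes. The strongest were Gpnmb, a membrane glycoprotein, from 2.04 ± 3.99 to 269 ± 180.0 CPM (log2 fold change 7.01, adjusted p = 0.00024), Atp6v0d2, a subunit of the vacuolar proton pump (5.38, adjusted p = 0.000281), and Rragd, a GTPase of amino acid sensing (2.82, adjusted p = 0.000169). Between the KD groups 6 of the 15 were higher and 1 was lower (all genes 9.77% and 6.41%; median 0.44 against -0.07). Mitf itself passed in neither comparison in the fit of all groups, and between the Control groups it passed with only these in the fit (0.40, adjusted p = 0.026).

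Of the 8 clock genes with E-boxes that BHLHE40 and BHLHE41 repress, 3 were lower and 0 higher in Control APP/PS1, namely Nr1d1 (log2 fold change -1.11, adjusted p = 0.00779), Dbp (-0.66, adjusted p = 0.0144) and Tef (-0.51, adjusted p = 0.00349). The share of all genes called lower was 4.48%, and the median was -0.46 against -0.02 over all genes. Between the KD groups 4 of 8 were lower and 0 higher (6.41% of all genes lower), with a median of -0.65 against -0.07. The hour of collection was not given in the labels.

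Of 16 PU.1 and IRF8 targets, 5 were higher and 2 lower in Control APP/PS1 (all genes 5.99% and 4.48%), with a median of 0.06 against -0.02 over all genes. Higher were Cybb, the oxidase subunit (1.71, adjusted p = 0.000883), Csf2ra, the GM-CSF receptor chain (1.66, adjusted p = 6.70e-06), and Cd14, a co-receptor for endotoxin (0.87, adjusted p = 4.30e-05). Lower were Cst3, which encodes cystatin C (-1.04, adjusted p = 7.33e-07), and Tlr4, the endotoxin receptor (-0.47, adjusted p = 0.0287). Between the KD groups 4 were higher and 4 lower (all genes 9.77% and 6.41%; median 0.17 against -0.07). Of 4 MAF family targets, C1qb, a complement chain, was lower in Control APP/PS1 (-0.37, adjusted p = 0.022) and in KD APP/PS1 (-0.38, adjusted p = 0.0243). Of 4 MEF2 targets, Hdac9, a histone deacetylase, was higher in Control APP/PS1 (1.00, adjusted p = 0.00221) and did not pass between the KD groups (0.20, adjusted p = 0.614). In both knockdown comparisons, 0 genes of these 5 lists passed with edgeR.

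**Figure D5:**
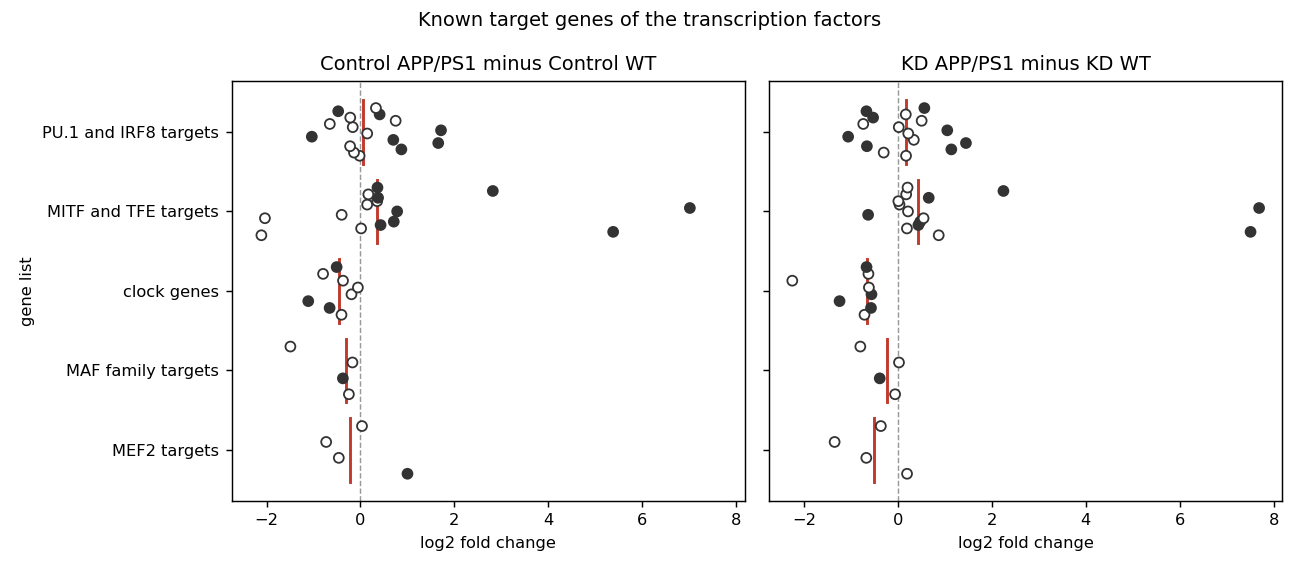
Log2 fold change (x axis) of each measured gene of the 5 target lists in both APP/PS1 comparisons; filled points passed an adjusted p of 0.05 (edgeR) and red lines are list medians. MITF and TFE targets lie mostly right of 0 with 3 genes above a log2 fold change of 2, and the clock genes lie left of 0.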

How the data were processed

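Per the study's methods and the labels, RNA of hippocampal CD11b+ cells was poly(A)-selected and sequenced in pairs, and the reads were trimmed (Trim Galore 0.6.7), aligned to mm39 with GENCODE annotation and counted per gene with STAR. The authors deposited these counts without normalization, 1 column per sample, for 18876 genes. Whether counting used the strand is not given in the sources used here. A second deposited table, scaled by size factors (DESeq2 1.36.0), was not used here.

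Each library was assigned to its group by the label in its title. A gene entered the test if 3 or more of the 22 libraries held 5 or more counts, which left 18759 genes. After TMM scaling, edgeR 4.0.16 in R 4.3.3 fitted the 4 groups together without covariates (quasi-likelihood, two-sided), with Benjamini-Hochberg adjustment over all genes tested and a threshold of 0.05. Standard errors are the fold change on the log2 scale over the root of F. The study removed a Control APP/PS1 sample without numbering it in the text. Library 10 was taken to be that sample, since it is absent from the study's heat map, and was left out. GENCODE M39 (GRCm39) gave exon lengths, positions and promoters, with 18731 genes found by identifier. The count test was tested on simulated data. Every member is reported in each comparison between 2 groups. Of the gene lists, counts are given and up to 3 genes past the threshold in each direction between the Control groups are named. For each member the 3 genes with the highest r are named, and some genes are not reported here. Mef2b, Nrl and Oscar were listed and not matched to a symbol of the count table. The members and lists were chosen with earlier results of these data known.

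Total counts of 31128643 to 54872491 per library limit counting error most for Bhlhe40, with 73 counts at the lowest. The p-values measure the spread between libraries. Alternatives were DESeq2 1.42.0, its size factors in edgeR, no filter, 10 or more counts required in every library, library 10 kept, only the compared groups in the fit, libraries 18 to 23 as a covariate or alone, libraries 12 and 15 left out, an added fold limit (1 on the log2 scale), and each library left out in turn.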

Additional observations from a re-analysis of the deposited data

Results flagged for a closer look

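Within the groups, 36 sets of 1 gene in 1 group were looked at for a library far from the others, where chance flags about 1 in 20. In Control APP/PS1, library 5 stood above the other 5 for Irf8, at 841 CPM with the next at 709, and for Runx1, at 79.7 CPM with the next at 59.5. In Control WT, library 6 stood below the others for Mitf, at 12.7 CPM with the next at 15.2.

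Library 10 of Control APP/PS1 was left out of the comparisons, and its levels were above the Control WT libraries for 2 of the members called between the Control groups, with all 23 libraries scaled together. Irf8 was at 615 CPM, against 600.4 CPM in the highest Control WT library. Bhlhe40 was at 27.9 CPM, against 17.5 CPM in the highest Control WT library. Of the other called members, Bhlhe41 was at 99.4 CPM, within the Control WT range, and Maf was at 157 CPM, below every Control WT library. In this library 7 members were below all 6 of the other Control APP/PS1 libraries, namely Irf8, Bhlhe41, Maf, Mef2a (101 CPM), Mef2c (161 CPM), Runx1 (41.0 CPM) and Mitf (8.24 CPM). The share of all genes that were also lowest in library 10 was not counted, so the 7 cannot be called particular to these factors.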

How the results depend on the processing

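Between the Control groups, 175 of 180 values of a member under an alternative kept their direction and their side of the threshold, and 0 turned in direction. Calls were gained for Mef2a with only the Control groups in the fit and with libraries 18 to 23 as a covariate, and for Mitf in the former. Of the 4 members called, Bhlhe40 and Maf, 2 in all, were called with an added limit of 1 on the log2 fold change or without libraries 12 and 15. Leaving out 1 library gave the same 4 calls each time, while 8.35% to 10.5% of all genes passed. Between the KD groups the count was 4 with any 1 library left out, where 10.6% to 25.6% of all genes passed. It was 2, again Bhlhe40 and Maf, with only the KD groups in the fit, with only libraries 18 to 23, and with the limit of 1. Irf8 (0.38, adjusted p = 0.0785, and 0.32, adjusted p = 0.427) and Mef2a (-0.94, adjusted p = 0.0847, and -0.73, adjusted p = 0.249) lost the call in the first 2 of these fits, which hold fewer libraries. In KD against Control APP/PS1 the count ran from 0 to 3 when 1 library was left out. It was 3 without library 4, where 16.4% of all genes passed (edgeR). Knockdown and the run of libraries 18 to 23 cannot be told apart without that library.

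Values that changed direction had not passed the threshold. With libraries 18 to 23 as a covariate, KD APP/PS1 against KD WT turned to 0.027 for Mef2c, 0.094 for Runx1 and 0.20 for Mitf. In libraries 18 to 23 alone these were 0.14, 0.22 and 0.13. With the covariate, KD WT against Control WT turned to -0.018 for Spi1, 0.27 for Mef2c and 0.17 for Mitf, KD APP/PS1 against Control APP/PS1 to 0.18 for Mef2a, 0.16 for Mef2c, 0.32 for Maf and 0.27 for Runx1, and the interaction to 0.075 for Maf. Spi1 in KD WT against Control WT was -0.0065 with DESeq2 and with its size factors, -0.011 with the stricter filter and -0.0088 with only those groups in the fit. The interaction for Irf8 was 0.050 with DESeq2 and with its size factors, 0.047 with the stricter filter and 0.026 with library 10 kept. The cause was not tested. Leaving out 1 library gave, in KD WT against Control WT, -0.031 to 0.033 for Spi1, -0.050 to 0.18 for Mef2a, -0.17 to 0.13 for Mef2c, -0.034 to 0.15 for Maf, -0.040 to 0.17 for Runx1 and -0.23 to 0.018 for Mitf, in KD APP/PS1 against KD WT -0.32 to 0.038 for Mitf, in KD against Control APP/PS1 -0.0093 to 0.087 for Spi1, and for the interaction of Irf8 -0.046 to 0.055. No paired analysis was made because the labels name no litter or other link between mice of different groups.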
